A study of Homo sapiens with 24 samples.

Results

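The guanylate-binding proteins GBP1 to GBP7 are 7 protein-coding genes that were found in the table of counts by their Ensembl identifiers, among 39321 genes in all. They were followed over 24 RNA-Seq libraries of A498 and 786-O, a pair of established lines grown from human clear cell kidney cancers. In each line the cells received a scrambled control siRNA (Cnsi) or a pooled siRNA against PD-L1 (PD-L1si), both used at 20 nM, and were then either left alone or exposed to IFNγ at 50 ng/mL for 24 hours. This gives 4 groups per line (Cnsi and PD-L1si, each with and without IFNγ) of 3 replicates, and every group had been transfected. The labels call the PD-L1si cells knockouts, while the methods of the study describe a transient silencing, which leaves some PD-L1. The labels do not say whether replicates came from separate cultures, so the p-values measure only the spread between these libraries, which may be technical.

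Each library held between 19256316 and 30350461 counts. The lines were sequenced on different instruments, so that line and instrument cannot be told apart. The labels and the figures of the study attach the 2 line names to opposite sets of libraries, and the names used here are those of the labels ("A498-labelled" and "786-O-labelled" libraries). *CD274*, which encodes PD-L1 and is the target of the siRNA, was lower with PD-L1si in both sets. In the A498-labelled libraries it was at 3.99 to 5.74 CPM (counts scaled to a common library size, defined with the processing) with Cnsi and at 0.810 to 1.01 CPM with PD-L1si, and with IFNγ at 191 to 199 CPM and 26.9 to 28.5 CPM. The 786-O-labelled values were 3.87 to 4.18 CPM with Cnsi and 1.21 to 1.90 CPM with PD-L1si, and with IFNγ 55.7 to 65.8 CPM and 30.6 to 32.7 CPM. Of 8 markers of kidney tubule and clear cell carcinoma, 8 had a median of at least 1 CPM in the A498-labelled libraries and 7 in the 786-O-labelled libraries, where *PAX2* was at 0. The summed level of the 4 leukocyte markers in the table was at most 2.81 CPM in any library, with *PTPRC*, which encodes CD45, at most at 0.107 CPM, and that of the 4 endothelial markers at most 1.21 CPM. Of these markers, *LCP1*, *VWF* and *TEK* were also at 0 in all the 786-O-labelled libraries, where the sums may thus miss them.

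GBPs are large GTPases of the dynamin superfamily that cells make in response to interferons. They gather on the surface of bacteria and on the vacuoles of parasites inside the cell, where GBP1 binds bacterial lipopolysaccharide and, with GBP2, GBP3 and GBP4, brings caspase-4 to it. IFNγ binds the receptor chains IFNGR1 and IFNGR2, the kinases JAK1 and JAK2 on these chains carry the signal on, and it reaches target genes through gamma-activated sites (GAS). One of these genes encodes IRF1, a factor that binds interferon-stimulated response elements (ISRE).

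The members lie side by side on chromosome 1 of GRCh38, between 89006679 and 89388160. On the minus strand are *GBP3* (chr1:89006679-89022894), *GBP1* (chr1:89051882-89065360), *GBP2* (chr1:89106132-89150456), *GBP7* (chr1:89131742-89176009), *GBP4* (chr1:89181144-89198942) and *GBP5* (chr1:89256189-89272860). *GBP6* (chr1:89364059-89388160) lies on the plus strand. The pseudogene *GBP1P1* follows at chr1:89410319-89426243. All values below are counts of reads on exons. *GBP2* and *GBP7* overlap on the same strand, and 22.5% of the 100-base windows of the longest *GBP7* transcript also occur in *GBP2* transcripts of the annotation, so that the counts of *GBP7* are uncertain. For *GBP1*, 1.38% of such windows also occur in *GBP1P1*, of whose own windows 34.8% are shared with other genes. The longest transcripts of *GBP2*, *GBP3*, *GBP5* and *GBP6* held no shared window.

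The promoters of 5 of the 7 members were in the RefSeq table (GRCh38.p14), and *GBP2* and *GBP5* were not. The 250 bases before the start were searched on both strands for the letters TTCNNNGAA (GAS) and GAAANNGAA (ISRE), which do not overlap in these windows. The *GBP1* window held the ISRE letters, on the strand opposite to the gene, 126 to 118 bases before the start, and the *GBP3* window the GAS letters 15 to 7 bases before the start. The windows of *GBP4*, *GBP6* and *GBP7* held neither. Forms of these elements with other letters were not searched for. A window without a match, also that of *GBP1* for GAS, may thus still hold such an element. Over 35116 promoters of the same length, 6.57% held the GAS letters, 6.88% the ISRE letters and 12.8% either, so that matches are common and these are a description of the sequence only. The matches are shown in 30 bases of the gene's own strand, with the letters in capitals, at chr1:89065315-89065344 for *GBP1* and chr1:89022867-89022896 for *GBP3*, both on the minus strand. They are followed by the whole *GBP4* window (chr1:89198943-89199192, minus strand), which is shown because it holds no match although *GBP4* was among the members with the largest IFNγ effect. Both matches lie within the first exon of GENCODE transcripts that start further upstream than the RefSeq start.
GBP1: acgaagtactTTCAGTTTCatattactcta
GBP3: tggttactgagtcacTTCCTTGAAagaagt
GBP4: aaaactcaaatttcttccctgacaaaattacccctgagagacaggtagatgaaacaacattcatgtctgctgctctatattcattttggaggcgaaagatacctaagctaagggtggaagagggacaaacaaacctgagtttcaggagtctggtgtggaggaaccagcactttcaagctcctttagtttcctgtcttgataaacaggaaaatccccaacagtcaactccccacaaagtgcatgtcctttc

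IFNγ raised every member that was measured in Cnsi cells. A gene was called when its Benjamini-Hochberg adjusted p, over all genes tested with the quasi-likelihood test of edgeR, lay under 0.05 with a log2 fold change beyond 0.5. In the A498-labelled libraries, 7 of 7 members were called higher, where 18.2% of the 20916 genes tested were called higher. These counts, and those of the other set, include members at 0 without IFNγ (*GBP6* and *GBP7*). Such genes passed the filter on counts only through groups with IFNγ. Their direction was thus fixed in advance, and their calls add no support. In the 786-O-labelled libraries, 6 of 6 were called higher, where 11.1% of 21209 were, and *GBP6* was not measured, being at 0 in all 12 of these libraries. A count of 0 there is not a level. Of the 1575 genes of the table with more than 500 counts in the A498-labelled libraries and 0 in all the 786-O-labelled libraries, 98.3% have an identifier version that differs from the later annotation used here, against 29.0% of the 12281 such genes counted in both. *GBP6*, with too few reads to be among the 1575, has a differing version as well. So have *GBP1*, *GBP5* and *GBP1P1*, which were counted in both sets. Why *GBP6* was at 0 was not tested. In bulk RNA, a higher level in each cell and a larger share of responding cells cannot be told apart.

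*GBP1*, the best studied member and the one that coats Gram-negative bacteria, was the most abundant with IFNγ. Its levels in the 3 A498-labelled libraries were 45.7, 48.4 and 45.7 CPM with Cnsi and 4556, 4457 and 4436 CPM with Cnsi IFNγ. The corresponding 786-O-labelled levels were 53.9, 49.5 and 55.8 CPM and 1719, 1643 and 1625 CPM. The groups were far apart in both sets. The log2 fold change was 6.59 ± 0.05 (SE, adjusted p = 7.50e-43 in edgeR) in the A498-labelled libraries and 4.97 ± 0.06 (adjusted p = 1.71e-28) in the 786-O-labelled libraries, or 96.2-fold and 31.3-fold.

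*GBP5*, which is reported to take part in NLRP3 inflammasome assembly, had the largest change of the family and one of the largest of all genes. The A498-labelled libraries held 6, 8 and 12 of its reads in the Cnsi group, against 58379, 59556 and 48857 in the Cnsi IFNγ group. The 786-O-labelled libraries held 12, 18 and 7 reads in the Cnsi group, against 13815, 13634 and 12646 in the Cnsi IFNγ group. Almost all reads of *GBP5* were thus from cells given IFNγ. The log2 fold change of 12.72 ± 0.09 ranked 7 of 20916 genes in the A498-labelled libraries, and that of 10.20 ± 0.11 ranked 5 of 21209 in the 786-O-labelled libraries. The base of these folds is 26 and 37 reads, summed over 3 libraries. Leaving out single libraries gave 12.52 to 13.03 and 9.93 to 10.61, a wider range than these SEs. The SE, defined with the processing, is too small for a large fold over so few reads.

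*GBP4* started nearly as low. Cnsi gave 35, 33 and 41 reads in the A498-labelled libraries, against 21429, 23844 and 18750 for Cnsi IFNγ. The same groups had 98, 89 and 79 reads and 20210, 22155 and 20139 reads in the 786-O-labelled libraries. The log2 fold changes were 9.29 ± 0.08 and 8.01 ± 0.09, at ranks 21 of 20916 and 25 of 21209.

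*GBP2* and *GBP3* had the smallest effects of the 5 well-counted members. *GBP2*, a geranylgeranylated member, went from 23.4 to 24.8 CPM over the A498-labelled Cnsi libraries to 712 to 737 CPM with Cnsi IFNγ, and from 35.1 to 40.7 CPM to 629 to 644 CPM in the 786-O-labelled libraries. Its log2 fold changes were 4.89 ± 0.05 and 4.08 ± 0.05. *GBP3* went from 90.2 to 100.3 CPM to 787 to 822 CPM in the A498-labelled libraries and from 22.2 to 25.1 CPM to 161 to 167 CPM in the 786-O-labelled libraries, with log2 fold changes of 3.06 ± 0.05 and 2.80 ± 0.06.

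*GBP6* and *GBP7* were barely present. *GBP6* had 0 reads in the 3 A498-labelled Cnsi libraries and 14, 19 and 11 reads with Cnsi IFNγ, at least 15.7-fold higher against a floor of 3 reads over the group. *GBP7* had 0 reads with Cnsi in all libraries, and with Cnsi IFNγ it had 4, 6 and 1 reads in the A498-labelled libraries and 7, 4 and 1 in the 786-O-labelled libraries, at least 3.92-fold and at least 4.40-fold higher. The call of *GBP7* in the A498-labelled libraries was lost in DESeq2 (adjusted p = 0.184). The floors and intervals cover counting error only.

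**Figure D1:**
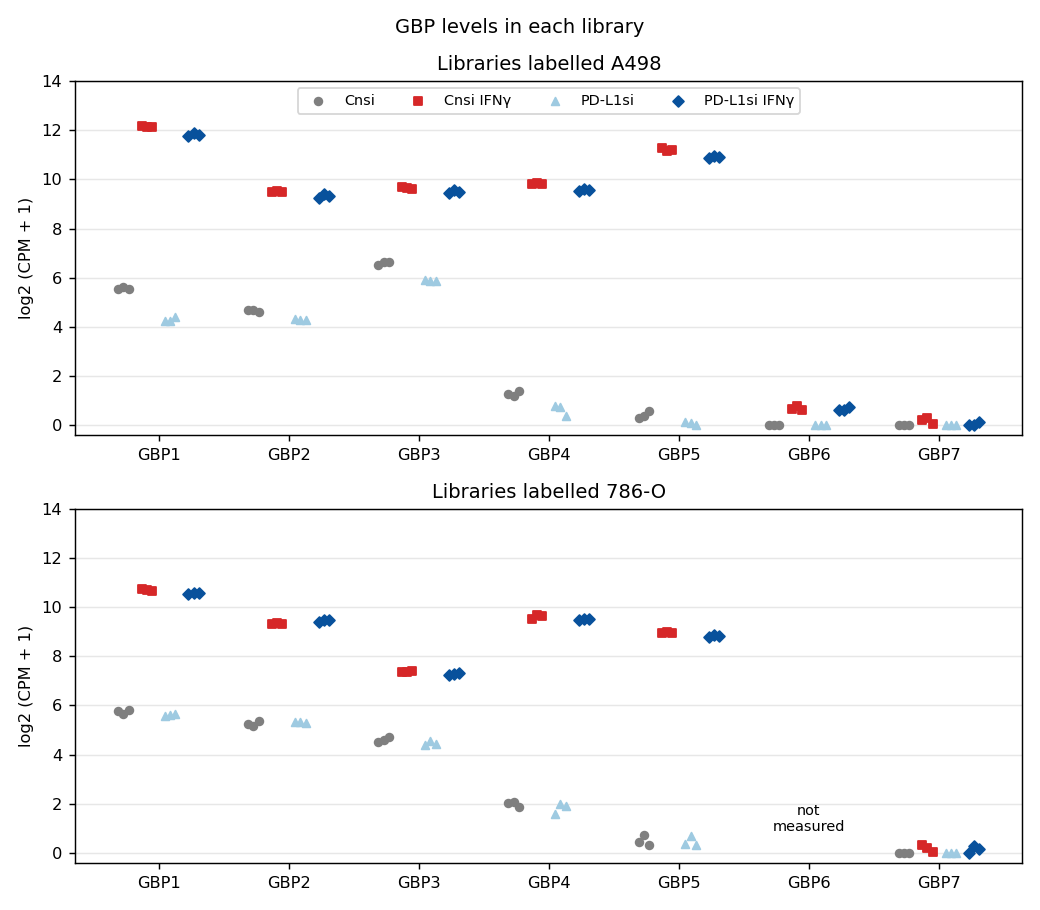
Level of each GBP in every library, as log2 of (CPM + 1), with the A498-labelled libraries above and the 786-O-labelled libraries below; each point is 1 library, and colour and shape mark the group. The IFNγ groups of GBP1 to GBP5 lie far above the groups without IFNγ, GBP6 and GBP7 stay under 1 CPM, and the PD-L1si points without IFNγ lie under the Cnsi points in the upper panel.

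The make-up of the family also differed with IFNγ. To compare genes, the CPM of each member was divided by the length of its exons in kb. In the A498-labelled libraries with Cnsi, the summed level was 33.7 ± 1.39 CPM per kb (SD, n = 3), of which *GBP3* made up 66.5% ± 1.08, *GBP1* 22.7% ± 0.555 and *GBP2* 10.0% ± 0.585. With Cnsi IFNγ the sum was 1386 ± 19.1 CPM per kb. *GBP1* then made up 53.0% ± 0.083 of it, *GBP5* 15.6% ± 0.306, *GBP3* 13.5% ± 0.115, *GBP4* 10.7% ± 0.259 and *GBP2* 7.21% ± 0.167, and no neighbours in this order overlapped between libraries. A family led by *GBP3* before IFNγ was thus led by *GBP1* after it in these libraries.

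In the 786-O-labelled libraries with Cnsi, the summed level was 20.0 ± 1.05 CPM per kb (SD, n = 3) and *GBP1* already led with 43.6% ± 1.08, while *GBP3* at 27.6% ± 1.31 and *GBP2* at 26.2% ± 0.586 overlapped between libraries. With Cnsi IFNγ the sum was 571 ± 3.98 CPM per kb, with *GBP1* at 47.7% ± 1.55 of it. *GBP4* came next with 22.2% ± 1.32 and *GBP2* with 15.5% ± 0.163. *GBP5* and *GBP3* were lower, at levels of 45.5 ± 0.436 and 38.2 ± 0.706 CPM per kb. With the longest transcript as the length, *GBP2* stood above *GBP4* with Cnsi IFNγ in both sets, at 8.88% against 7.43% in the A498-labelled libraries and 19.3% against 15.7% in the 786-O-labelled libraries. As a share of all counts, the 7 genes went from 0.0171% with Cnsi to 0.853% with Cnsi IFNγ in the A498-labelled libraries, and from 0.0123% to 0.355% in the 786-O-labelled libraries.

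**Figure D2:**
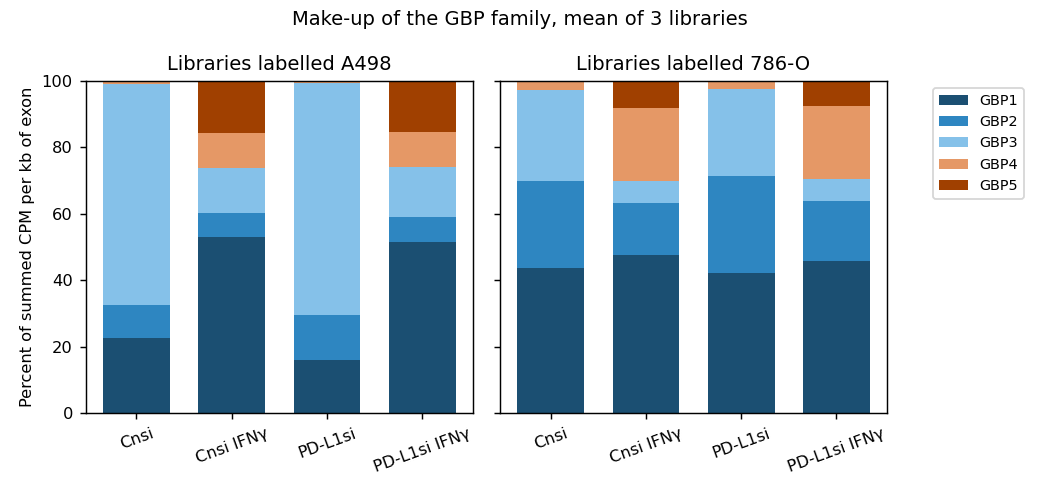
Percent of the summed CPM per kb of exon that each of GBP1 to GBP5 takes in each group, as the mean of 3 libraries, with the A498-labelled libraries on the left and the 786-O-labelled libraries on the right. GBP3 takes most of the bar without IFNγ on the left (66.5% with Cnsi), and GBP1 is the largest part of both bars with IFNγ on each side.

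The IFNγ effect was smaller in the 786-O-labelled libraries for 4 of the 6 members tested in both sets, where 13.2% of 17999 genes were called lower in the same test of the difference (one edgeR model of 24 libraries). Taken as the 786-O-labelled value less the A498-labelled one, the difference in log2 fold change was -2.53 ± 0.37 for *GBP5* (SE, adjusted p = 3.40e-07), -1.63 ± 0.07 for *GBP1* (7.75e-22), -1.28 ± 0.17 for *GBP4* (4.03e-08) and -0.82 ± 0.07 for *GBP2* (2.76e-13). That of *GBP3* was -0.27 ± 0.07 (adjusted p = 0.00130) and did not pass the fold threshold, and *GBP7* had too few reads for a value. The levels without IFNγ differed as well. *GBP3* was at 96.0 ± 5.25 CPM (SD, n = 3) with Cnsi in the A498-labelled libraries and at 23.6 ± 1.46 CPM in the 786-O-labelled libraries, while *GBP4* was at 1.45 ± 0.167 CPM and 3.01 ± 0.260 CPM.

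Silencing of PD-L1 in the absence of IFNγ went with less GBP RNA in the A498-labelled libraries. There 4 of 7 members were called lower with PD-L1si (*GBP1*, *GBP3*, *GBP4* and *GBP5*), where 5.6% of the 20916 genes tested were called lower. For comparison, 0 of 6 were called lower in the 786-O-labelled libraries, where 1.63% of genes were. In edgeR, 2 of these 6 were lower at an unadjusted p under 0.05, as were 14.0% of all genes, and in DESeq2 none was called either.

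*GBP1* was at 18.1, 18.2 and 20.5 CPM with PD-L1si in the A498-labelled libraries, under each of the Cnsi libraries, and at 40.6% of the Cnsi level (log2 fold change -1.30 ± 0.05, SE, adjusted p = 5.30e-20). *GBP3* was at 57.8 to 58.7 CPM and at 60.7% of the Cnsi level (-0.72 ± 0.05, adjusted p = 5.81e-15). *GBP4* had 21, 16 and 9 reads and *GBP5* 3, 2 and 0 reads, again under every Cnsi library. Their log2 fold changes were -1.33 ± 0.22 (adjusted p = 8.70e-06) and -2.38 ± 0.51 (adjusted p = 0.000355). That of *GBP5* was -1.77 without PD-L1si replicate 3 and -2.98 without PD-L1si replicate 1. *GBP2* was at 18.7 to 19.1 CPM with PD-L1si, 77.5% of the Cnsi level, with an adjusted p of 2.17e-06 but a log2 fold change of -0.37 ± 0.06, which did not reach the threshold. *GBP6* and *GBP7* had 0 reads in both groups.

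In the 786-O-labelled libraries, the 5 well-counted members differed little between PD-L1si and Cnsi. The siRNA target *CD274* was also less reduced there, at 1.52 CPM against 4.08 CPM. In the A498-labelled libraries it was at 0.916 CPM against 5.07 CPM. Whether this bears on the GBPs was not tested. *GBP1*, for one, was at 46.1, 48.5 and 49.8 CPM with PD-L1si and at 49.5 to 55.8 CPM with Cnsi. The log2 fold changes ran from -0.20 ± 0.13 for *GBP4* to 0.05 ± 0.05 for *GBP2*, with adjusted p-values of at least 0.0802.

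**Figure D3:**
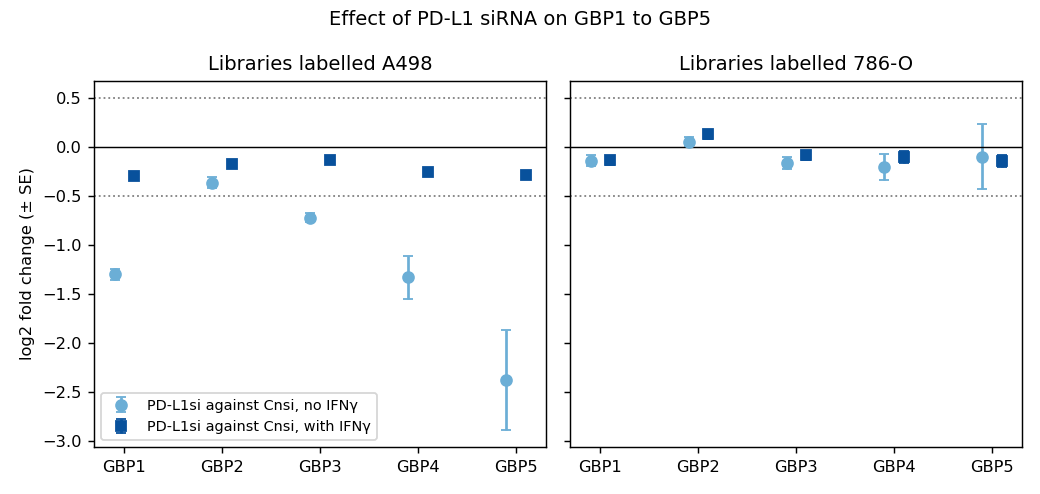
Log2 fold change of PD-L1si against Cnsi for GBP1 to GBP5, with its SE, without IFNγ (light circles) and with IFNγ (dark squares); dotted lines mark the threshold of 0.5 in either direction. On the left (labelled A498) the light circles run from -0.37 for GBP2 to -2.38 for GBP5 while the dark squares lie between -0.30 and -0.13; on the right (labelled 786-O) all points lie between -0.20 and 0.13.

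Under IFNγ, no member was called with PD-L1si in either set, 0 of 7 where 5.75% of genes were called lower in the A498-labelled libraries and 0 of 6 where 1.74% were in the 786-O-labelled libraries. The 5 well-counted members were nonetheless all a little lower with PD-L1si IFNγ than with Cnsi IFNγ in the A498-labelled libraries, with adjusted p-values under 0.05 and log2 fold changes from -0.30 ± 0.04 for *GBP1* to -0.13 ± 0.04 for *GBP3*. By the adjusted p alone, 17.8% of all genes were lower in this comparison. *GBP1* was at 3459, 3818 and 3628 CPM with PD-L1si IFNγ, 81.1% of its Cnsi IFNγ level, and *GBP5* at 1876, 2007 and 1936 CPM against 2447, 2309 and 2351 CPM, 81.9%. In DESeq2 no member was called in either set. At an unadjusted p under 0.05 in edgeR, 6 of 7 members were lower in the A498-labelled libraries, where 21.3% of all genes were lower at this level. Of 6 in the 786-O-labelled libraries 2 were lower and 1 was higher, against 14.1% and 12.1% of all genes. *GBP1* in the 786-O-labelled libraries was at 1494 to 1526 CPM against 1625 to 1719 CPM (-0.14 ± 0.05, adjusted p = 0.0477), and *GBP2* at 678 to 706 CPM against 629 to 644 CPM (0.13 ± 0.05, adjusted p = 0.0755).

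In PD-L1si cells IFNγ again raised the family. In the A498-labelled libraries 6 of 7 members were called higher (17.6% of all genes), with log2 fold changes of 7.58 ± 0.06 for *GBP1*, 5.08 ± 0.05 for *GBP2*, 3.65 ± 0.05 for *GBP3*, 10.36 ± 0.09 for *GBP4* and 14.81 ± 0.11 for *GBP5*. The last of these has a base of 5 reads over 3 libraries and was 14.22 without PD-L1si replicate 3 and 15.43 without PD-L1si replicate 1. *GBP6* had 12, 10 and 14 reads, at least 15.4-fold higher than without IFNγ. *GBP7* had 0, 0 and 2 reads and was not called. In the 786-O-labelled libraries 6 of 6 were called higher (11% of all genes), with log2 fold changes of 4.97, 4.15, 2.87, 8.11 and 10.16 for *GBP1* to *GBP5*. *GBP7* had 0, 6 and 3 reads there, at least 3.26-fold higher, and its call was lost without any one of 5 libraries. As in Cnsi cells, *GBP6* and *GBP7* could only be called higher, since they passed the filter through groups with IFNγ alone.

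For several members the effect of IFNγ was larger in PD-L1si than in Cnsi cells of the A498-labelled libraries. The interaction of siRNA and IFNγ was called for 4 of 7 members, where 1.81% of genes were called with a larger IFNγ effect in PD-L1si cells. It was 1.00 ± 0.07 for *GBP1* (log2, SE, adjusted p = 1.93e-12), 0.59 ± 0.06 for *GBP3* (1.17e-08), 1.07 ± 0.23 for *GBP4* (0.00132) and 2.09 ± 0.52 for *GBP5* (0.00725). That of *GBP2* was 0.19 ± 0.07 (adjusted p = 0.0796). It is the same quantity as the difference between the siRNA effects with and without IFNγ, from the same libraries, and so no second observation. The interactions of *GBP4* and *GBP5* rest on few reads without IFNγ. Without PD-L1si replicate 3 they were 0.74 (adjusted p = 0.0637) and 1.48 (adjusted p = 0.128), and without Cnsi replicate 3 that of *GBP5* was 1.77 (adjusted p = 0.0841). No member was called in the 786-O-labelled libraries, where 0.0377% of genes were called with a larger IFNγ effect in PD-L1si cells. The values of the 5 well-counted members ran from -0.04 ± 0.35 for *GBP5* to 0.10 ± 0.14 for *GBP4*. Of these members none had an unadjusted p under 0.05 in edgeR, and none was called in DESeq2. Of all genes, only 3.57% had a smaller and 4.55% a larger IFNγ effect in PD-L1si cells at this unadjusted level.

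The genes on either side of the cluster moved far less than its members. With IFNγ in Cnsi cells, *RBMXL1*, a gene for an RNA-binding protein next to *GBP3*, had log2 fold changes of 1.05 ± 0.07 and 0.79 ± 0.07 in the A498-labelled and 786-O-labelled libraries, *KYAT3*, for a kynurenine aminotransferase, 0.54 ± 0.08 and 0.63 ± 0.09, and *GTF2B*, for a general transcription factor, 0.25 ± 0.07 and 0.62 ± 0.08. All were called higher except *GTF2B* in the A498-labelled libraries. Of all genes, 18.2% were called higher and 18.5% lower in the A498-labelled libraries, and 11.1% and 7.39% in the 786-O-labelled libraries. *RBMXL1* and *KYAT3* start at nearly the same position and overlap on the same strand. On the other side, *LRRC8B*, *LRRC8C* and *LRRC8D*, which encode subunits of the volume-regulated anion channel, had values from -0.36 to 0.28 in the A498-labelled libraries, and *LRRC8C* and *LRRC8D* of -0.31 and 0.13 in the 786-O-labelled libraries, none of them called. *LRRC8B* was at 0 in the 786-O-labelled libraries and was not measured there. With PD-L1si, 2 of these neighbours were called, both under IFNγ, which were *LRRC8B* in the A498-labelled libraries (0.72 ± 0.09) and *LRRC8C* in the 786-O-labelled libraries (-0.52 ± 0.09). Of all genes, 1.74% were called lower in the latter comparison. In the former, 20.4% were higher at an unadjusted p under 0.05 in edgeR.

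*GBP1P1*, the pseudogene, rose as well. It had 3, 4 and 2 reads in the Cnsi group and 5885, 6347 and 5234 in the Cnsi IFNγ group of the A498-labelled libraries, and 23, 16 and 12 against 1643, 1434 and 1377 in the 786-O-labelled libraries (log2 fold changes 10.96 ± 0.10 and 6.58 ± 0.12). In A498-labelled PD-L1si cells it went from 2 reads over the group to 11232, a ratio of 7206 between scaled levels (95% counting interval 1994 to 59511). Reads were counted by strand, and 2 non-coding genes on the strand opposite to members gained reads with IFNγ as well. *ENSG00000237568*, within *GBP5*, had 7.03% to 7.08% of the *GBP5* counts with IFNγ in the A498-labelled libraries and 6.90% to 7.25% in the 786-O-labelled libraries. *ENSG00000284734*, which overlaps *GBP4* in part, had 2.97% to 3.35% of the *GBP4* counts with IFNγ. A further such gene, *ENSG00000286802* within *GBP2*, had only 0 to 4 reads in each library. How much of these counts is read spill from the other strand was not tested.

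**Figure D4:**
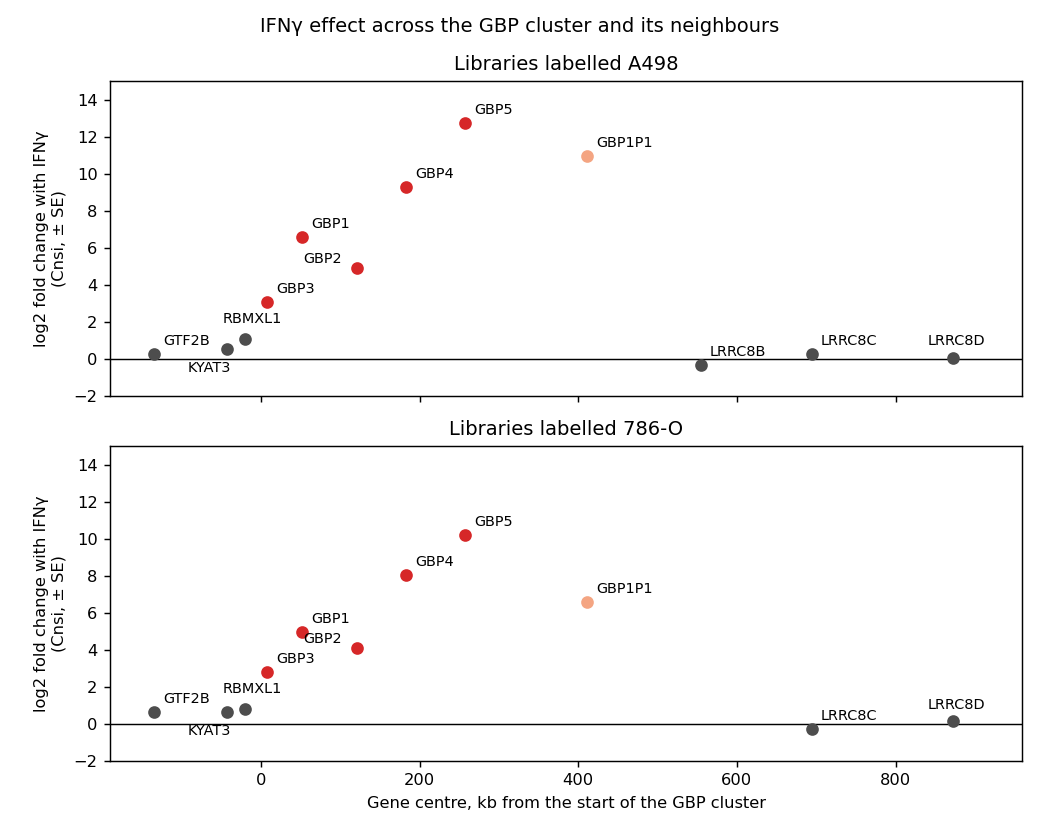
Log2 fold change with IFNγ in Cnsi cells, with its SE, against the distance of each gene's centre from the start of the GBP cluster in kb; members are in red, the pseudogene GBP1P1 in orange and the 3 nearest protein-coding genes on each side in grey. GBP6 and GBP7, at 0 without IFNγ, are left out, as is LRRC8B on the lower panel. The bars of GBP5 and GBP1P1 understate the error, as these genes had few reads without IFNγ. The members lie from 2.80 (GBP3, labelled 786-O) to 12.72 (GBP5, labelled A498), and the grey genes from -0.36 to 1.05.

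Beside the GBPs, the pathway that leads to them was followed in lists compiled from general knowledge. Of the genes from the IFNγ receptor to the IRF factors, 11 of 13 tested rose with IFNγ in A498-labelled Cnsi cells and 8 of 9 in the 786-O-labelled libraries (median log2 fold changes 1.55 and 1.33, against -0.03 and 0.00 over all genes). Of all genes, 18.2% and 11.1% were called higher. *IRF1* rose by 4.62 ± 0.04 and 4.77 ± 0.06, and *SOCS1*, a feedback inhibitor of JAK kinases, by 5.68 ± 0.16 and 5.00 ± 0.11. *JAK2* (3.07 ± 0.08) rose in the A498-labelled libraries and was at 0 in the 786-O-labelled libraries, so it was not measured there. With PD-L1si and no IFNγ, 1 of these 13 genes fell in the A498-labelled libraries, a share near the 5.6% of all genes called lower, and it was *IRF1* (-0.86 ± 0.05, adjusted p = 5.05e-17). In the 786-O-labelled libraries, where 1.19% of all genes were called higher with PD-L1si, 1 of 9 rose, and it was *SOCS1* (0.88 ± 0.16, adjusted p = 0.000429). *IRF1* had 0.08 ± 0.05 there (adjusted p = 0.398). The interaction in the A498-labelled libraries was called for 2 of the 13 in opposite directions, 0.65 ± 0.06 for *IRF1* and -0.71 ± 0.07 for *SOCS3*, another feedback inhibitor, where 1.81% of all genes were called higher and 0.645% lower.

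Most partners of GBPs in inflammasomes and in the sensing of lipopolysaccharide also rose. With IFNγ in Cnsi cells, 9 of 11 rose and 1 fell in the A498-labelled libraries, where 18.2% of all genes were called higher and 18.5% lower. In the 786-O-labelled libraries 9 of 10 rose, where 11.1% were called higher and 7.39% lower. The median log2 fold changes were 2.25 and 1.80. *CASP1*, the protease of the canonical inflammasome, rose by 3.49 ± 0.11 and 3.15 ± 0.07. *APOL3*, an apolipoprotein L that acts on bacterial membranes after GBP1, rose by 7.50 ± 0.09 and 4.52 ± 0.10, and *CASP4*, the caspase that GBPs bring to lipopolysaccharide, by 1.26 ± 0.04 and 1.67 ± 0.06. *IL1B*, a product of inflammasomes, fell by 1.55 on the log2 scale in the A498-labelled libraries (SE 0.58, adjusted p = 0.0192) and rose by 1.29 ± 0.26 in the 786-O-labelled libraries. With PD-L1si and no IFNγ, 4 of 11 fell in the A498-labelled libraries (*APOL3*, *CASP4*, *NLRP3* and *PYCARD*) and *IL18* rose, where 5.6% of all genes were called lower and 2.87% higher. *APOL3* fell by 1.07 on the log2 scale (SE 0.26) and *CASP4* by 0.59 (SE 0.04). None of the 10 tested in the 786-O-labelled libraries passed, where only 1.63% of all genes were called lower and 1.19% higher. *APOL3* and *CASP4* had -0.40 ± 0.14 and -0.20 ± 0.06 there.

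A further list held enzymes that attach and trim the lipid tail of GBP1, GBP2 and GBP5. Of 6 in the A498-labelled libraries, 1 rose and 2 fell with IFNγ in Cnsi cells (*FNTA* 0.50 ± 0.06, *FNTB* -0.93 ± 0.12 and *ICMT* -0.62 ± 0.04), where *FNTA* and *FNTB* encode the 2 subunits of farnesyltransferase. Of all genes in these libraries, 18.2% were called higher and 18.5% lower. Of 5 in the 786-O-labelled libraries, 0 passed, where 11.1% of all genes were called higher and 7.39% lower. Of the other dynamin-like and interferon-inducible GTPases, 4 of 18 rose and 4 fell in the A498-labelled libraries, shares near the 18.2% and 18.5% of all genes called higher and lower, and 4 of 14 rose in the 786-O-labelled libraries, against 11.1% of all genes. The antiviral genes *MX1* (5.30 ± 0.07 and 3.29 ± 0.05) and *MX2* (6.00 ± 0.09 and 5.62 ± 0.20) were among them. *GVINP1*, a pseudogene of the very large inducible GTPases, was called in both sets. With PD-L1si and no IFNγ, 3 of 18 fell in the A498-labelled libraries, where 5.6% of all genes were called lower. They were *MX1* (-1.44 ± 0.13), *MX2* (-2.66 ± 0.30) and *EHD2* (-1.06 ± 0.05). In the 786-O-labelled libraries these had 0.28 ± 0.05, -0.59 ± 0.50 and -0.26 ± 0.05. Of 14 tested there, 0 were called lower, where only 1.63% of all genes were. There 1 of 14, *DNM3*, rose (0.56 ± 0.14), where 1.19% of all genes were called higher. Of 7 reported regulators and targets of GBP proteins, 2 rose with IFNγ in the A498-labelled libraries and 0 in the 786-O-labelled libraries, and with 18.2% and 11.1% of all genes called higher, these counts do not set the list apart. *PIM1*, a kinase that phosphorylates GBP1, rose by 1.82 ± 0.05 and fell with PD-L1si by 0.73 on the log2 scale (SE 0.06) in the former and had 0.08 ± 0.06 and -0.37 ± 0.06 in the latter. *FURIN*, the protease that GBP2 and GBP5 inhibit, had -0.34 ± 0.05 and 0.11 ± 0.05 with IFNγ.

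The genes most like each member were found by the root mean square difference between profiles of log2 (CPM + 1) over the 12 libraries of a line, each profile taken relative to its Cnsi mean. In the A498-labelled libraries, these were *OR2I1P* (0.343) for *GBP1*, *SAMHD1* (0.116) for *GBP3*, *CXCL9* (0.356) for *GBP4* and *IDO1* (1.20) for *GBP5*. *APOL3* (0.435) came next for *GBP1*. Among the 786-O-labelled libraries they were *HLA-DPB1* (0.157) for *GBP1*, *RTP4* (0.0912) for *GBP2*, *FRMD3* (0.0983) for *GBP3* and *OR2I1P* for *GBP4* (0.437) and *GBP5* (0.402). *IRF1* (0.165) came next for *GBP1* there. No gene was the closest to the same member in both sets. Within the family, *GBP1* and *GBP2* differed by 1.26 in the A498-labelled libraries and by 0.560 in the 786-O-labelled libraries, and *GBP4* and *GBP5* by 1.59 and 0.608. The members named with their closest gene were further from each other than from that gene. It was, however, the closest of 14958 genes in the A498-labelled libraries and of 14165 in the 786-O-labelled libraries. The closest of so many is near in any case, so this says nothing about how alike the members are. All these profiles share the libraries and the response to IFNγ, and the values are a description.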

How the data were processed

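The authors trimmed the reads with Trimmomatic 0.36.6, aligned them to GRCh38 with HISAT2 2.1.0 and counted them by strand on GENCODE exons with featureCounts 1.6.3. The deposited values are these raw counts per gene, whole numbers with no normalization. Columns were matched to samples by the labels, and 0 had no sample. Names, positions and exon lengths came from GENCODE annotation of a newer release (also GRCh38), in which 39148 of 39321 genes were found. RefSeq promoters were read from a table.

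Genes whose counts summed to at least 10 in at least 1 group were tested with edgeR 4.0.16 in R 4.3.3, in the older form of the quasi-likelihood fit with robust estimation and TMM scaling, after the methods of the study but with genes of every biotype. The 12 libraries of a line were fitted together. CPM are counts divided by the TMM-scaled library size, times 1000000. The SE of a log2 fold change is its size divided by the square root of the F statistic of the test. For large folds over a group with few reads it understates the error. The common biological coefficient of variation was 0.0392 in the A498-labelled libraries and 0.0560 in the 786-O-labelled libraries. The 95% interval of a ratio is an exact binomial one, and the floor is 3 reads over a group. On simulated counts with 200 changed genes, 197 were recovered in each line with 4 false calls. The changed genes were all well counted, and every gene was given the same common spread. The simulation thus does not cover *GBP6* and *GBP7*, or groups with few reads of *GBP4* and *GBP5*.

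Replicates did not match to within counting error in any of 24 pairs (chi-square per degree of freedom 1.63 to 24.3). The labels give the numbers 1 to 3 in every group but do not tie equal numbers together, and so the fit has no pairing. The alternatives were DESeq2 1.42.0, RLE scaling, 2 other filters, protein-coding genes only, 2 other thresholds, the newer edgeR fit, a fit of the compared groups alone, the replicate block, another gene length and leaving out single libraries. The named genes are the members, GBP1P1, CD274, the 3 nearest protein-coding genes on each side, called or central genes of the lists, and the genes most like each member. The values of some genes under this rule are not reported here. The members, lists and rules were chosen with earlier results of these data known.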

Additional observations from a re-analysis of the deposited data

Results flagged for a closer look

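In the A498-labelled libraries, the log2 IFNγ effect differed between PD-L1si and Cnsi cells by the interaction test of edgeR for *GBP1* (0.9971, adjusted p = 1.93e-12), *GBP3* (0.5912, 1.17e-08), *GBP4* (1.069, 0.00132) and *GBP5* (2.087, 0.00725). All were larger with PD-L1si, and the levels with IFNγ were no higher with PD-L1si in any of these genes, the levels without it being lower. The log2 IFNγ effect in Cnsi cells also differed between the 786-O-labelled libraries and the A498-labelled libraries, by -1.625 for *GBP1*, -0.8207 for *GBP2*, -1.282 for *GBP4* and -2.53 for *GBP5*. The instrument differed with the line, and line and instrument cannot be told apart.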

How the results depend on the processing

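The counts of GBP genes past the threshold stayed within 1.5 times of those reported under every alternative and omission, except in 2 comparisons of the A498-labelled libraries and 1 of the 786-O-labelled libraries. For PD-L1si against Cnsi under IFNγ, the count of 0 in the A498-labelled libraries became 5 with the adjusted p alone, and that of 0 in the 786-O-labelled libraries became 1. The omission of single libraries gave 0 to 1 in the former, the 1 being *GBP7* (-4.97, adjusted p = 0.0307 in edgeR) without PD-L1si IFNγ replicate 3, which held its 2 reads. The interaction count of 4 in the A498-labelled libraries became 2 at a log2 fold change over 1, and 2 to 4 over the omissions, with 2 without PD-L1si replicate 3, the library with the fewest *GBP4* and *GBP5* reads. Of the values of single genes, 1343 kept their direction and their side of the threshold, 9 lost the call, 1 gained it, and 23 changed sign, all of them values that were called neither before nor after. The 9 were *GBP7* with IFNγ (6) and the interactions of *GBP4* and *GBP5* (3). Of the 23, the interaction of *GBP1* in the 786-O-labelled libraries became -0.0051 with RLE scaling, -0.015 with the filterByExpr filter, -0.020 with protein-coding genes only and -0.0051 in DESeq2, and the line difference of *GBP7* with IFNγ became 0.13 in DESeq2. The others came from omitting single libraries. The interactions in the 786-O-labelled libraries then ran from -0.048 to 0.050 for *GBP1*, from -0.079 to 0.21 for *GBP4*, from -0.45 to 0.48 for *GBP5* and from -1.35 to 0.089 for *GBP7*. The value of *GBP5* with PD-L1si and no IFNγ ran there from -0.62 to 0.30, and that of *GBP7* with PD-L1si under IFNγ from -1.35 to 0.089. That of *GBP6* with PD-L1si under IFNγ in the A498-labelled libraries, and its interaction, ran from -0.25 to 0.040, and the line difference of *GBP7* from -0.65 to 0.13. Where both groups compared were at 0 for *GBP6* or *GBP7*, or a filter removed the gene, no value could be given. All 10 shares of the family moved by more than 1 SD with the longest transcript as the length.

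With the replicate number as a block, the number of members called with IFNγ in Cnsi cells stayed at 7 and 6, and no call of a member changed. Deviations of libraries with the same number had a mean correlation of 0.0499 (-0.0964 to 0.248) in the A498-labelled libraries and 0.0280 (-0.322 to 0.268) in the 786-O-labelled libraries. Pairs with other numbers had means of -0.0249 and -0.0136. Of 12 libraries, 7 and 4 were closest to their own number. Whether equal numbers share more than a number cannot be told from these values. Depth limits *GBP6* and *GBP7*, with 80 and 13 reads over the 12 A498-labelled libraries, and the levels of *GBP4* and *GBP5* without IFNγ.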
